A study of Mus musculus with 12 samples.

Results

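Anti-PD-1 antibody was set against its absence across all 12 of the 12 MC38 tumors in the series, 6 tumors a side. MC38 cells come from a mouse colon carcinoma and were grown under the skin of the flank of wild-type female C57BL/6 mice that entered the study at 6 weeks of age. The side that received the antibody consisted of 3 PD tumors (200 μg of anti-PD-1 per injection, given alone) and 3 Comb tumors (the same antibody together with SFIH at 50 mg/kg a day), and the side without it of 3 Con tumors (saline and an IgG2a antibody) and 3 SFIH tumors (SFIH without anti-PD-1, which the study's group names pair with IgG2a). SFIH is the sesquiterpene lactone-rich fraction of the root of Inula helenium, and all of the agents were injected into the peritoneum. Each tumor carries the time label of day 19. The sides were formed from the treatment labels alone, and SFIH was kept as a block. Every fold change between the sides is the anti-PD-1 term of a fit that draws on PD minus Con and on Comb minus SFIH, which share no tumor. It need not equal their average. The labels name the material tumor cells, while the RNA was taken from pieces of whole tumor. A higher or lower level in such bulk RNA can come from more or fewer cells of a type or from more or less RNA per cell, and these cannot be told apart.

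PD-1 is an inhibitory receptor that T cells display after activation. Its ligands PD-L1 (Cd274) and PD-L2 (Pdcd1lg2) are carried by tumor cells and myeloid cells, and an antibody against PD-1 prevents this contact and so releases T cell activity. Activated T cells and natural killer cells secrete interferon gamma, which acts through transcription factors such as IRF1 to raise the genes of antigen presentation, of the guanylate-binding proteins and of the chemokines that draw further T cells. Cxcl9 is the best known of these chemokines, and Ciita is the switch for the MHC class II genes.

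Libraries of 3′ mRNA ends held between 7870741 and 12261032 counts per tumor, and from 4.28% to 17.1% of them belonged to Rn45s, the precursor of ribosomal RNA. Levels are given as CPM (counts scaled to the library total) after TMM scaling, and differences as log2 fold changes with their standard error (SE). The Comb tumor of replicate 3 stood apart from the other 11. Its TMM scaling factor was 0.760 against 0.884 to 1.12 in the others, and its genes of mitosis and the spindle summed to 542 CPM against 4561 to 6034 CPM elsewhere. Genes of skeletal muscle summed to 9537 CPM in this tumor, to 1149 CPM in Comb replicate 1 and to 335 CPM in PD replicate 1. The other 3 antibody-treated tumors lay between 83.6 and 133 CPM, and the 6 tumors without the antibody between 101 and 156 CPM. Of the 21 muscle genes tested, 16 were higher with anti-PD-1 at an unadjusted p under 0.05 and none was lower. The shares of all genes tested were 13.0% higher and 5.49% lower. Epithelial keratins were scarce: Krt8 had at most 26 counts, Krt18 at most 42 and Epcam at most 22 in the other 11 tumors, against 255, 219 and 85 in Comb replicate 3. Skin genes in Comb replicate 3 summed to 695 CPM, against 11.4 to 66.6 CPM in the other tumors. Adipocyte genes summed to 3588 CPM in this tumor and to 1013 CPM in Comb replicate 2, against 256 to 429 CPM in the others. Higher at an unadjusted p under 0.05 were 5 of 13 tested, beside 13.0% of all genes. The part that these tissue differences have in any result was not tested, and a fold change is also given without this tumor where leaving it out moved the value by over 1.5 times.

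The question of the comparison was which genes differ with PD-1 blockade whether or not SFIH is given. In the fit of all 12 tumors no gene of the 13464 tested passed the threshold (0%; edgeR quasi-likelihood test, Benjamini-Hochberg adjusted p under 0.05), and the smallest adjusted p was 0.110. At an unadjusted p under 0.05, 1747 genes (13.0%) were higher and 739 genes (5.49%) were lower with anti-PD-1. A stricter description counts genes that were separated, meaning that all 3 PD tumors lay on the same side of all 3 Con tumors and all 3 Comb tumors on that side of all 3 SFIH tumors. There were 309 such genes on the higher side (2.30%) and 250 on the lower side (1.86%). Separation gives the smallest two-sided p that the 400 exact arrangements within the SFIH strata allow, 0.005, which after adjustment over all genes was 0.120. With total counts alone in place of TMM the same count was 175 higher and 529 lower.

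Leaving out Comb replicate 3 lowered the common dispersion from 0.162 to 0.0639, and 112 genes (0.822%) were then called higher and 36 genes (0.264%) lower of 13621 at an adjusted p under 0.05. At an unadjusted p under 0.05, 12.4% of genes were higher and 8.30% lower in that fit. Leaving out Comb replicate 1 instead gave 755 called higher and 206 lower. These fits shared 130 calls, all 130 with the same sign, which is 87.8% of the 148 calls without replicate 3 and 13.5% of the 961 without replicate 1. Most of their tumors are the same, so that the shared calls and signs are no replication. The first of the 2 fits is used below as the companion of the 12-tumor fit, and a gene is said to be called only where it passed in that edgeR fit. Over the 12 tumors DESeq2 called 7.18% of genes higher and 1.57% lower, and voom with sample quality weights 1.59% and 1.04%. In the edgeR fit without Comb replicate 3 the gene with the smallest adjusted p was Ccr2, with 0.00789. DESeq2 gave no adjusted p for Ccr2.

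Effects in the strata were compared next. Over the 13464 genes the log2 fold change of PD minus Con and that of Comb minus SFIH had the same sign in 8620 (64.0%), with Pearson's r of 0.625 and Spearman's rho of 0.482 across genes, which are not independent replicates. Without Comb replicate 3 the same-sign share was 69.8%, r was 0.621 and rho 0.559. Neither stratum passed the test on its own in edgeR: 0 genes were called in PD against Con, where 311 were higher and 226 lower at an unadjusted p under 0.05, and 0 in Comb against SFIH, where 1991 were higher and 568 lower. Without Comb replicate 3 these counts were 836 and 625 in PD against Con and 975 and 494 in Comb against SFIH, with 0 called in each. With each pair of groups fitted alone they were 894 and 877, and 1262 and 147. No gene was called for the interaction either, the test of whether the antibody's effect differed with SFIH, and its smallest adjusted p was 0.894. At an unadjusted p under 0.05 the interaction was positive in 269 genes and negative in 75, but in 97 and 114 without Comb replicate 3 and in 1617 and 767 without Comb replicate 1. The effects with and without SFIH are not thereby shown to be equal.

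**Figure D1:**
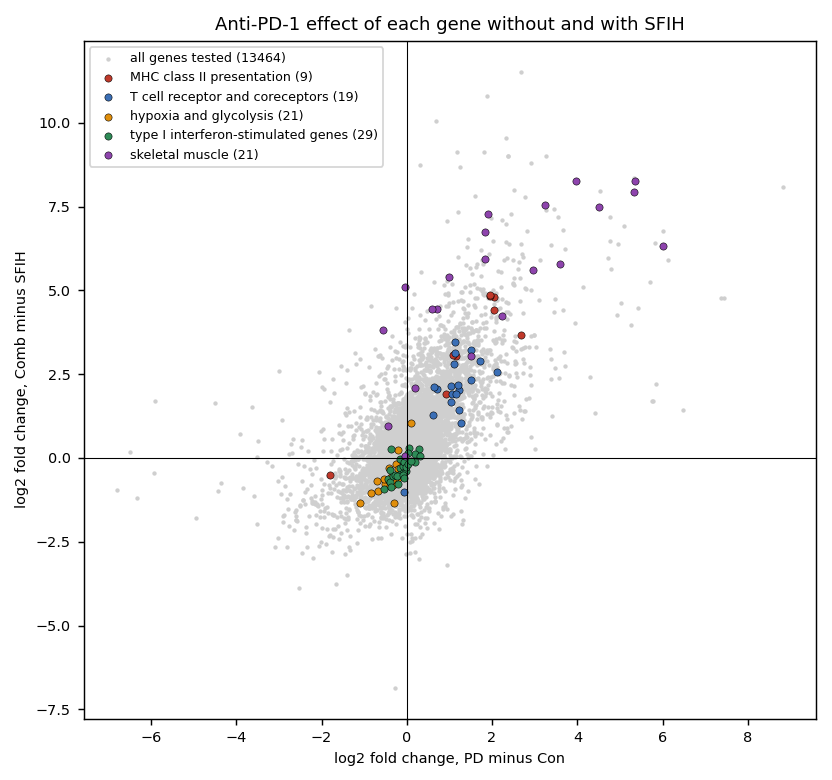
Each point is a gene, with the log2 fold change of PD minus Con on the horizontal axis and that of Comb minus SFIH on the vertical axis; coloured points are the tested genes of 5 lists. T cell and MHC class II genes lie mostly in the upper right, hypoxia and glycolysis genes in the lower left, and muscle genes reach the largest values with SFIH.

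Interferon gamma and the genes it induces differed in part. Ifng itself was scarce, with 0.702, 0.201 and 1.25 CPM in the Con tumors and 1.82, 6.00 and 1.90 CPM in the PD tumors. With SFIH it was at 2.11, 0.520 and 1.15 CPM without the antibody and at 1.36, 10.6 and 11.1 CPM with it. The strata thus differ in overlap, since 1 Comb tumor lay below an SFIH tumor, and the log2 fold change was 2.37 (SE 0.61, exact permutation p = 0.02). Ifng was not called without Comb replicate 3 (edgeR adjusted p = 0.0749). Cxcl9, the chemokine that attracts CXCR3-bearing T cells, had the smallest p of the 18 genes named for their part in the study. It was at 152, 61.6 and 125 CPM in Con and at 265, 375 and 342 CPM in PD, then at 120, 106 and 105 CPM in SFIH and at 194, 698 and 579 CPM in Comb. All 6 antibody-treated tumors lay above all 6 others, for a log2 fold change of 1.84 (SE 0.31), or 3.59-fold, and Cxcl9 was called without Comb replicate 3 (edgeR adjusted p = 0.0409).

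Irf1, a transcription factor that interferon gamma induces and that acts on these genes, was between 263 and 388 CPM without and between 346 and 556 CPM with the antibody, separated within both strata (log2 fold change 0.61, SE 0.13). Ubd, a ubiquitin-like modifier, was at 4.82 to 11.9 CPM without and 11.6 to 79.1 CPM with it, a log2 fold change of 2.03 (SE 0.40). Of the 20 CXCR3 chemokines and other interferon gamma-induced genes tested, 12 were higher and 1 lower at an unadjusted p under 0.05. The shares of all genes were 13.0% and 5.49%. Separated were 6 higher and 1 lower, beside 2.30% and 1.86% of all genes, and the median log2 fold change was 0.81 beside -0.03. Of these 20 genes 4 were called higher without Comb replicate 3, beside 0.822% of all genes. The other CXCR3 ligands were not called. Cxcl10 was at 315 to 411 CPM without and 73.0 to 883 CPM with the antibody (log2 fold change 0.40, SE 0.42, exact permutation p = 0.975), and Cxcl11 at 18.8 to 31.3 CPM against 0 to 43.7 CPM (0.01, SE 0.67, exact permutation p = 0.82). Comb replicate 3 was the lowest tumor for both, and without it the log2 fold changes were 0.65 (SE 0.22, exact permutation p = 0.09) for Cxcl10 and 0.31 (SE 0.23, exact permutation p = 0.38) for Cxcl11. The tryptophan-degrading enzyme gene Ido1 had a log2 fold change of -0.34 (SE 0.66, exact permutation p = 0.545) and Nos2, the inducible nitric oxide synthase, of -0.64 (SE 0.46, exact permutation p = 0.165). Among the 21 interferon-induced GTPases, which attack the vacuoles of intracellular microbes, 15 were higher and none lower by the same measure, with a median of 0.71 with all tumors and 0.71 without Comb replicate 3. Gbp4 was at 15.7 to 22.6 CPM without and 25.4 to 92.4 CPM with anti-PD-1, and Iigp1 at 242 to 307 CPM against 297 to 766 CPM. Gbp5 was at 68.0, 77.9 and 69.6 CPM in Con, 110, 105 and 124 CPM in PD, 48.6, 63.7 and 65.3 CPM in SFIH and 75.6, 160 and 104 CPM in Comb, with a log2 fold change of 0.79 (SE 0.17). Gbp4, Gbp5, Irf1 and Ubd were called without Comb replicate 3, while Iigp1 just missed (edgeR adjusted p = 0.0504). The GTPases are a family of close copies, so that reads may be split between members.

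Genes induced mainly by type I interferons had a median on the other side of 0. None of the 29 tested was higher at an unadjusted p under 0.05, 1 was lower, and 20 of them were lower in both strata, and the median log2 fold change was -0.21, or -0.05 if Comb replicate 3 is left out. Without that tumor 3 were higher and 5 lower at an unadjusted p under 0.05, beside 12.4% and 8.30% of all genes. Dhx58, a helper of the RNA sensors, was the 1 lower gene with all tumors, at 24.7 to 43.8 CPM without and 12.4 to 30.1 CPM with the antibody (log2 fold change -0.50, SE 0.21). The RNA-sensing enzyme gene Oas2 was at 18.9 to 29.9 CPM without and 1.56 to 26.1 CPM with it, and the lowest value was that of Comb replicate 3. MHC class I presentation genes had 2 of 20 higher, beside 13.0% of all genes, and a median of 0.18. Without Comb replicate 3 they had 6 of 20 higher, beside 12.4%, and a median of 0.23. B2m, the invariant chain of class I, was at 5280 to 6552 CPM without and 5980 to 20657 CPM with the antibody. Its log2 fold change was 0.72 (SE 0.27), or 0.42 (SE 0.13) without Comb replicate 3, the highest tumor.

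Promoters of the interferon-induced and the hypoxia genes are shown because the lists separate in opposite directions. The sequences are the 250 bases before the start site, from RefSeq on the build GRCm38.p6, all on the plus strand, and lie at chr11:53769764-53770013 for Irf1, chr3:142496684-142496933 for Gbp5 and chrX:106186850-106187099 for Pgk1. Capitals mark the gamma-activated sequence (GAS) in Irf1, the interferon-stimulated response element (ISRE) in Gbp5 and the core of the hypoxia response element in Pgk1, each found by its letters on either strand. A single motif is marked per gene, and the Gbp5 bases also hold GAS letters that are not marked.
Irf1: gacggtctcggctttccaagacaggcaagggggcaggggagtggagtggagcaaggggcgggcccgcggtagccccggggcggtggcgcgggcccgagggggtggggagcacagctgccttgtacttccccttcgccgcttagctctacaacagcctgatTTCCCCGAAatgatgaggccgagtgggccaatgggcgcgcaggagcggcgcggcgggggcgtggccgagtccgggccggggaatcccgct
Gbp5: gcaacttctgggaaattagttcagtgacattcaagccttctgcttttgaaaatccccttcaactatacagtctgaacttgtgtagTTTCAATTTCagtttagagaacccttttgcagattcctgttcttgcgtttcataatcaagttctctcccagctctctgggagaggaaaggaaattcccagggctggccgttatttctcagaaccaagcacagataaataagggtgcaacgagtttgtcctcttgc
Pgk1: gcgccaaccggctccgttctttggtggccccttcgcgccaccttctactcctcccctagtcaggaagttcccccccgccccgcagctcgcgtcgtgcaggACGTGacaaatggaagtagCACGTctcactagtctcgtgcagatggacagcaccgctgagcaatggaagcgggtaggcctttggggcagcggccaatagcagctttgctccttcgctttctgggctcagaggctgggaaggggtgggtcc
The GAS letters were TTCNNNGAA, the ISRE letters GAAA, any 2 bases and GAAA again, and the hypoxia core ACGTG, and no marked stretch overlaps another. The Irf1 match ends 81 bases before the start site, the Gbp5 match 155 bases before it, and the Pgk1 matches 145 and 126 bases before it.

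Over windows of 300 bases that reach 50 bases past the start, GAS letters were in 8.30%, ISRE letters in 3.44% and the hypoxia core in 19.6% of all 32851 RefSeq promoters. Among the tested genes, 10108 of 13464 matched by symbol, with 12865 promoters, of which 7.09% held GAS letters, 3.16% ISRE letters and 24.7% the hypoxia core. Of the 309 genes separated higher, 227 matched, and 10.4% of their 280 promoters held GAS letters, 7.50% ISRE letters and 16.1% the hypoxia core. The 187 matched genes of those separated lower had 232 promoters, with GAS letters in 7.33%, ISRE letters in 3.45% and the hypoxia core in 22.8%. Promoters were found for 11 of the 21 GTPases, 21 of the 29 type I genes and 20 of the 21 hypoxia and glycolysis genes tested. ISRE letters were in 10 of the 12 promoters of the GTPase list, in 14 of 24 of the type I list and in none of 26 of the hypoxia and glycolysis list. The hypoxia core was in 15 of those 26 and in 1 of the 12 GTPase promoters. These shares describe the letters alone.

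MHC class II presentation, by which dendritic cells, macrophages and B cells show peptides to CD4 T cells, differed most by size among the immune lists. Of 9 genes tested, 8 were separated higher and 7 were called higher without Comb replicate 3, beside 2.30% and 0.822% of all genes. The median log2 fold change was 3.18 with and 2.22 without that tumor. H2-Ab1, which encodes a class II beta chain, was at 79.7, 35.0 and 116 CPM in Con and at 214, 413 and 318 CPM in PD. In SFIH it was at 139, 70.4 and 52.4 CPM and in Comb at 162, 877 and 4588 CPM. No tumor with the antibody overlapped a tumor without it, and the log2 fold change was 3.23 (SE 0.79), or 2.28 (SE 0.42) without Comb replicate 3. Its partner chain H2-Aa had a range of 68.9 to 246 CPM without and 261 to 10889 CPM with the antibody. Ciita, the master regulator of these genes, was low throughout, with 0.10 to 0.536 CPM without and 0.874 to 9.62 CPM with the antibody (log2 fold change 3.18, SE 0.63, or 2.55, SE 0.50, without Comb replicate 3). H2-DMb1, part of the chaperone that loads peptides on class II, was at 32.2 to 52.8 CPM against 66.0 to 280 CPM. H2-Oa, which belongs to the inhibitor of that chaperone, was the exception, with 2.81 to 6.69 CPM without and 0.575 to 4.86 CPM with the antibody (log2 fold change -1.12, SE 0.51).

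T cell genes were higher with anti-PD-1 in 16 of 19 tested at an unadjusted p under 0.05, and none was lower. Among all genes tested 13.0% were higher and 5.49% lower. The median log2 fold change of the T cell genes was 1.60 with all tumors and 1.11 without Comb replicate 3. Cd2, an adhesion receptor of T and natural killer cells, was at 2.90, 2.21 and 4.02 CPM in Con and 7.37, 22.5 and 9.90 CPM in PD. With SFIH its values were 6.98, 2.45 and 3.34 CPM without and 7.87, 18.9 and 50.0 CPM with the antibody, so that the sides did not overlap (log2 fold change 2.35, SE 0.47). Cd2 was the only gene of this list that was called without Comb replicate 3 (edgeR adjusted p = 0.0424). Cd27 and Cd247, a costimulatory receptor and a signaling chain of the T cell receptor, were likewise separated, with log2 fold changes of 2.31 (SE 0.57) and 1.49 (SE 0.39). Cd3e, Cd8a and Cd4 overlapped within a stratum. Cd8a was at 4.22 to 8.12 CPM without and 4.27 to 23.9 CPM with the antibody, a log2 fold change of 1.32 (SE 0.39, exact permutation p = 0.045, or 0.075 without Comb replicate 3). Cd4 was at 0.351 to 2.05 CPM against 0.748 to 25.3 CPM (log2 fold change 2.34, SE 0.74, exact permutation p = 0.02), and Cd3e at 1.0 to 2.69 CPM against 2.14 to 15.2 CPM (1.53, SE 0.52, exact permutation p = 0.025). Without Comb replicate 3 the log2 fold change of Cd4 was 1.67 (SE 0.55, exact permutation p = 0.025) and that of Cd3e 0.89 (SE 0.38, exact permutation p = 0.06).

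Among receptors that restrain or assist T cells, 10 of 15 checkpoint genes and 7 of 12 genes of regulatory T cells and costimulation were higher at an unadjusted p under 0.05, with 1 gene lower in each list. The shares of all genes were 13.0% higher and 5.49% lower. Without Comb replicate 3 the higher genes were 7 of 15 and 6 of 12, beside 12.4% of all genes. In that fit edgeR called 0 and 1 genes higher, beside 0.822%. DESeq2 called 5 genes higher in each list over the 12 tumors, beside 7.18% of all genes. The median log2 fold changes were 1.41 and 0.69 with all tumors and 1.09 and 0.47 without that tumor. Icos, a costimulatory receptor of activated T cells, was at 6.05, 4.32 and 4.46 CPM in Con, 11.2, 18.0 and 10.6 CPM in PD, 6.18, 3.86 and 5.21 CPM in SFIH and 6.99, 19.7 and 36.0 CPM in Comb. It was separated across all 12 tumors and called without Comb replicate 3, with a log2 fold change of 1.73 (SE 0.35). Tnfrsf4 (OX40) was at 1.81 to 3.95 CPM against 4.95 to 27.5 CPM, and Ctla4, an inhibitory receptor, at 0.401 to 1.82 CPM against 1.26 to 5.77 CPM. Entpd1 (CD39), an ectoenzyme of exhausted T cells, regulatory T cells and macrophages, was at 5.02 to 11.4 CPM against 11.7 to 62.9 CPM. Pdcd1, the target of the antibody, was at 1.05, 0.903 and 1.87 CPM in Con and 2.35, 7.91 and 2.0 CPM in PD. In SFIH it was at 1.89, 1.11 and 0.730 CPM and in Comb at 0.874, 3.34 and 4.33 CPM, where the lowest Comb tumor lay below the highest SFIH tumor (log2 fold change 1.41, SE 0.49, exact permutation p = 0.035). Without Comb replicate 3 the log2 fold change of Pdcd1 was 1.25 (SE 0.51, exact permutation p = 0.09). Cd274 was at 29.6 to 61.0 CPM without and 35.4 to 145 CPM with the antibody, and its log2 fold change of 0.91 (SE 0.31) was 1.09 (SE 0.24) without Comb replicate 3, which just missed the threshold (edgeR adjusted p = 0.0503). Pdcd1lg2 was at 0 to 2.04 CPM against 1.28 to 98.6 CPM, highest in Comb replicate 3, and the log2 fold change of 4.03 came to 2.26 without that tumor.

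Cytotoxic effectors split. Of 15 tested, 4 were higher and 4 lower at an unadjusted p under 0.05, beside 13.0% and 5.49% of all genes. The median log2 fold change of the list was 0.22, or -0.05 without Comb replicate 3. The 4 lower genes were Gzmc, Gzmd, Gzme and Gzmg, which lie in 1 granzyme cluster of the mouse. Gzmc was at 116, 74.2 and 82.1 CPM in Con and 20.9, 60.1 and 27.2 CPM in PD, and at 204, 66.0 and 63.4 CPM in SFIH and 21.1, 18.0 and 10.8 CPM in Comb. All 6 antibody-treated tumors lay below all 6 others (log2 fold change -2.03, SE 0.42), and Gzmc was called lower without Comb replicate 3 (edgeR adjusted p = 0.0485). Gzmg was at 19.2 to 58.3 CPM without and 0.486 to 29.2 CPM with the antibody. These granzymes are closely similar in sequence, so reads may be exchanged between them. Gzmb, the granzyme of activated killer cells, was at 9.74 to 50.1 CPM without and 6.10 to 21.4 CPM with the antibody, a difference within the spread (log2 fold change -0.43, SE 0.40, exact permutation p = 0.465). Srgn, the proteoglycan that packs granule contents in many leukocytes, and Ccl5, a chemokine of effector T cells, lay on the higher side. Srgn was at 53.2 to 71.6 CPM in 5 tumors without the antibody and 96.0 CPM in the other, against 107 to 1113 CPM with it. The log2 fold change of Srgn was 2.04 (SE 0.49), or 1.43 (SE 0.27) without Comb replicate 3, and that of Ccl5 1.16 (SE 0.30). Srgn was called without Comb replicate 3, while Ccl5 was not (edgeR adjusted p = 0.0568) and overlapped with SFIH, at 55.1 CPM in Comb replicate 1 against 70.4 CPM in SFIH replicate 2.

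Of 12 natural killer cell genes tested, 7 were higher at an unadjusted p under 0.05, beside 13.0% of all genes, and none was separated. Without Comb replicate 3, 5 were higher and 1 lower, beside 12.4% and 8.30% of all genes. None was called by edgeR, with or without that tumor, or by voom. DESeq2 called 5 higher over the 12 tumors, beside 7.18% of all genes. Klrk1, the activating receptor NKG2D, was at 4.27 to 14.8 CPM without and 8.54 to 71.2 CPM with the antibody (log2 fold change 1.56, SE 0.46). Ncr1, which marks natural killer cells more narrowly, was at 0.208 to 4.0 CPM against 0.30 to 4.09 CPM and did not differ beyond the spread (log2 fold change -0.08, SE 0.63). Raet1b, a ligand of NKG2D, was on the other side: it was at 9.39 to 13.2 CPM without and 3.80 to 6.68 CPM with the antibody, with no overlap (log2 fold change -1.15, SE 0.20), and it was called lower without Comb replicate 3 (edgeR adjusted p = 0.0409).

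**Figure D2:**
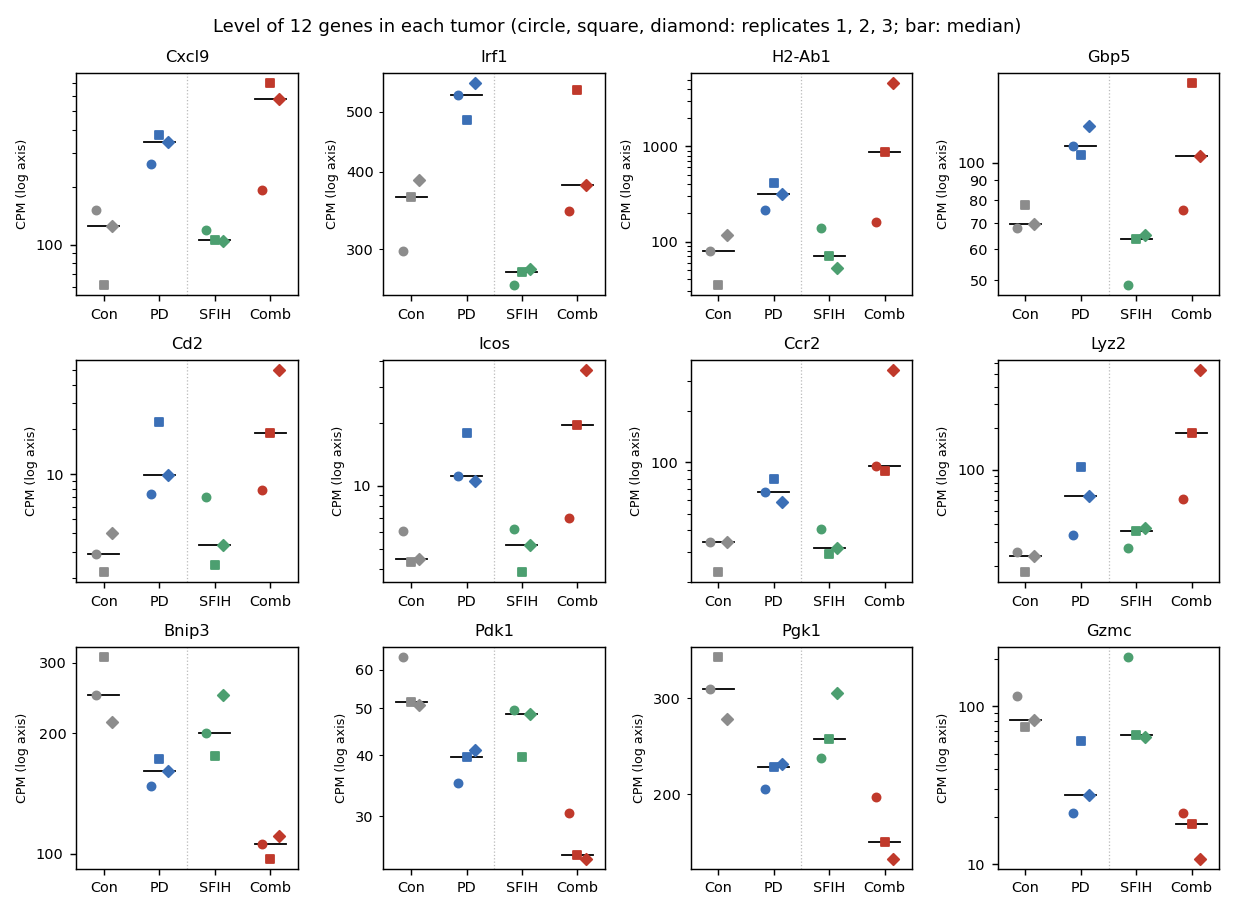
CPM on a log axis in each of the 12 tumors for 12 genes; groups are Con and PD left of the dotted line and SFIH and Comb right of it, and bars are group medians. The immune genes lie higher in PD than in Con and in Comb than in SFIH, Bnip3, Pdk1, Pgk1 and Gzmc lie lower, and Comb replicate 3 (red diamond) is the highest tumor for H2-Ab1, Cd2, Icos, Ccr2 and Lyz2.

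All 19 pan-macrophage genes tested were higher in both strata and at an unadjusted p under 0.05, beside 13.0% of all genes at that p. Separated higher were 9, beside 2.30% of all genes, and 1 was called higher without Comb replicate 3, beside 0.822%. The median log2 fold change was 1.61 with all tumors and 1.02 without Comb replicate 3. Of 13 monocyte recruitment genes, 9 were higher and none lower at that p, 10 were higher and 1 lower in both strata, and 2 were called higher without Comb replicate 3. Lyz2, the lysozyme of myeloid cells, was at 25.1, 18.1 and 23.6 CPM in Con, 33.4, 105 and 63.9 CPM in PD, 26.8, 35.7 and 37.9 CPM in SFIH and 61.3, 186 and 529 CPM in Comb. Csf1r, the receptor for the macrophage growth factor, was at 59.2 to 143 CPM against 160 to 974 CPM. Itgam (CD11b) and Adgre1 (F4/80), which encode proteins that were stained in the study, had log2 fold changes of 1.14 (SE 0.27) and 1.91 (SE 0.63), and that of Adgre1 was 1.14 (SE 0.34) without Comb replicate 3. Ccr2, the receptor that brings inflammatory monocytes out of the blood, was at 34.2, 22.9 and 34.2 CPM in Con and 67.0, 80.0 and 58.4 CPM in PD. It was at 40.7, 29.0 and 31.7 CPM in SFIH and 95.8, 88.7 and 346 CPM in Comb, so that the sides did not overlap and the spread within each group was small apart from Comb replicate 3. The log2 fold change of Ccr2 was 1.78 (SE 0.37), and 1.29 (SE 0.14) without that tumor. C5ar1, the receptor for complement C5a, and Clec5a, an activating receptor of myeloid cells, were also separated, with log2 fold changes of 0.89 (SE 0.16) and 1.76 (SE 0.30).

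Markers used for the macrophage poles differed in part. Of the M2-like list 14 of 19 and of the M1-like list 7 of 17 were higher at an unadjusted p under 0.05, beside 13.0% of all genes. The medians were 2.58 and 0.62 with all tumors and 1.71 and 0.65 without Comb replicate 3, and the lists were not tested against each other. On the M1-like side 4 of the 17 had a fold change below 0, 3 of them in both strata, among them Nos2, and Cxcl10 was not called (both described above). Clec10a, a lectin of M2-like macrophages and dendritic cells, was at 5.44 to 20.3 CPM without and 14.1 to 767 CPM with the antibody, separated within each stratum. Chil3 (Ym1) was at 2.51 to 14.1 CPM against 10.4 to 248 CPM and Msr1, a scavenger receptor, at 27.2 to 46.4 CPM against 48.2 to 162 CPM. Comb replicate 3 was the highest tumor for each. The log2 fold change of Clec10a was 3.47 (SE 0.83) with and 2.56 (SE 0.47) without it, and that of Chil3 2.58 (SE 0.49) and 1.96 (SE 0.26). Mrc1 (CD206) was at 14.4 to 49.8 CPM against 31.4 to 808 CPM, a log2 fold change of 2.58 (SE 0.70), or 1.93 (SE 0.47) without Comb replicate 3, with the ranges overlapping. Il12b, the interleukin-12 subunit of M1-like cells, was at 1.93 to 3.42 CPM without and 2.65 to 18.5 CPM with the antibody, where Comb replicate 3 had the lowest value of the antibody side, and was called without it (edgeR adjusted p = 0.0409). Ptprc (CD45), carried by nearly all leukocytes, was at 66.7 to 132 CPM against 117 to 497 CPM, with a log2 fold change of 1.13 (SE 0.34).

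Hypoxia and glycolysis genes were lower with anti-PD-1. Of 21 tested, 16 were lower and none higher at an unadjusted p under 0.05, beside 5.49% and 13.0% of all genes. In both strata 19 were lower. Separated lower were 9, beside 1.86% of all genes, and 7 were called lower without Comb replicate 3, beside 0.264%. The median log2 fold change was -0.50, beside -0.03 over all genes, and -0.47 without that tumor. The summed level was between 5391 and 7009 CPM without the antibody and between 3841 and 4883 CPM with it, and Comb replicate 3 lay inside the latter range with 4277 CPM. With total counts alone the median was -0.65, and the median of all genes then was -0.20. Bnip3, a mitophagy protein induced by HIF-1, was at 250, 310 and 214 CPM in Con, 148, 173 and 161 CPM in PD, 200, 175 and 249 CPM in SFIH and 106, 97.3 and 111 CPM in Comb. It had the smallest p of this list, with a log2 fold change of -0.84 (SE 0.14), or 1.79-fold lower, and all 6 antibody-treated tumors lay below all 6 others. Pgk1, the glycolytic kinase whose promoter is shown above, was at 312, 357 and 274 CPM in Con and 205, 225 and 227 CPM in PD, then 233, 253 and 307 CPM in SFIH and 197, 164 and 152 CPM in Comb, with no overlap across the 12 tumors (log2 fold change -0.58, SE 0.12). Pdk1, a kinase that inhibits pyruvate dehydrogenase, was at 39.7 to 63.7 CPM against 24.5 to 41.0 CPM (log2 fold change -0.65, SE 0.12). Gapdh was at 96.4 to 125 CPM against 64.8 to 84.9 CPM, and its many pseudogene copies make its own level uncertain.

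Genes outside the list were also among the 10 with the smallest p on the lower side. Aldoc, a glycolytic aldolase, was at 16.1 to 54.3 CPM without and 3.10 to 18.6 CPM with the antibody (log2 fold change -2.21, SE 0.42). P4ha2, which hydroxylates collagen proline, was at 66.4 to 126 CPM against 29.1 to 70.5 CPM (log2 fold change -0.88, SE 0.17). Sdc1, a cell surface proteoglycan of epithelial and plasma cells, was at 71.4 to 96.1 CPM against 40.2 to 59.5 CPM. The spliceosomal RNA gene Rnu11 and the unannotated transcript 3010026O09Rik completed this side, with log2 fold changes of -2.03 (SE 0.40) and -0.88 (SE 0.18). Vegfa, the angiogenic target of HIF-1, was not among them: it was at 88.6, 83.0 and 73.4 CPM in Con, 115, 86.9 and 81.0 CPM in PD, 93.5, 65.3 and 70.4 CPM in SFIH and 60.3, 47.8 and 26.9 CPM in Comb. Its log2 fold change was 0.21 without SFIH and -0.76 with SFIH, for -0.28 (SE 0.24) over both (exact permutation p = 0.275), and the interaction was not called.

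**Figure D3:**
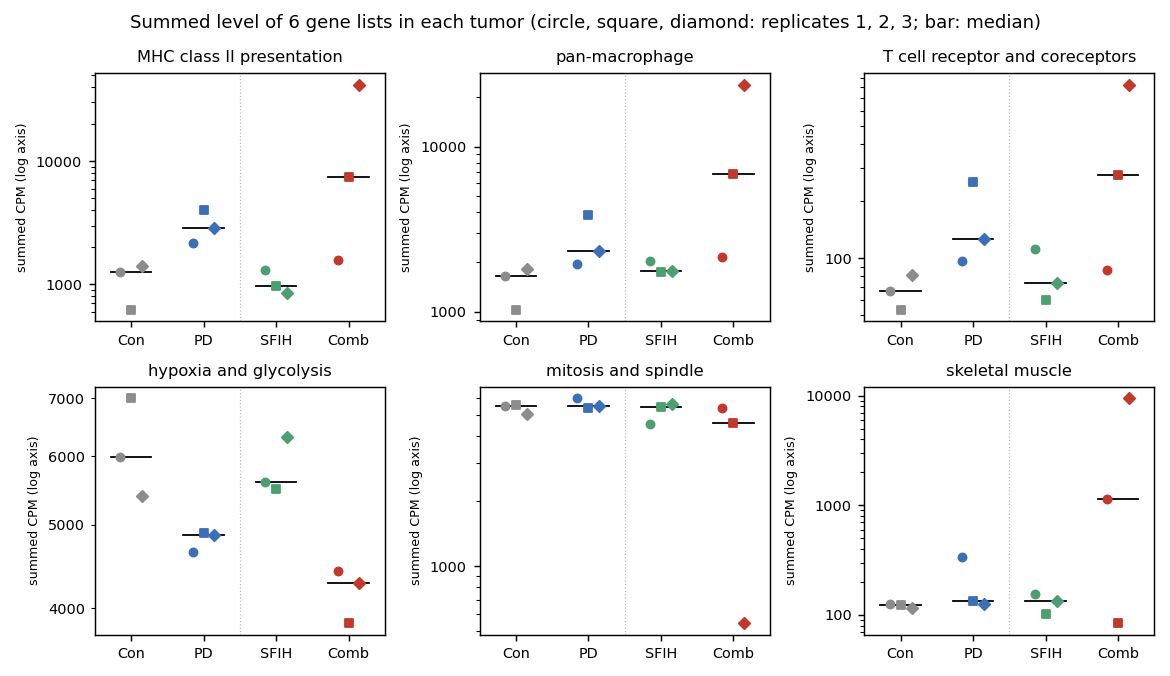
Summed CPM on a log axis in each tumor for 6 gene lists, with Con and PD left of the dotted line and SFIH and Comb right of it; bars are group medians. MHC class II sums do not overlap between tumors with and without the antibody, nor do hypoxia and glycolysis sums, while mitosis and muscle sums are set apart mainly by Comb replicate 3 (542 and 9537 CPM).

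Of 28 collagen and fibroblast genes tested, edgeR called none, with or without Comb replicate 3. Over the 12 tumors DESeq2 called 13 higher and voom 3, beside 7.18% and 1.59% of all genes. At an unadjusted p under 0.05, 17 were higher and none lower with all tumors, beside 13.0% and 5.49% of all genes. Without Comb replicate 3, 15 were higher, beside 12.4%. The median log2 fold change was 0.97 with all tumors and 0.77 without that tumor. Col1a1 was at 191 to 564 CPM without and 458 to 4367 CPM with the antibody (log2 fold change 1.98, SE 0.48), and the ranges overlapped. Podn, a small leucine-rich proteoglycan of the matrix, Cdh11, a cadherin of fibroblasts, and Cyp1b1, a cytochrome P450 of stromal cells, were among the 10 genes with the smallest p on the higher side. Cdh11 was at 2.91 to 9.28 CPM against 7.58 to 65.4 CPM and Cyp1b1 at 1.05 to 5.63 CPM against 3.89 to 32.8 CPM, with the SFIH tumor of replicate 3 the highest of the side without the antibody for each. The imprinted noncoding RNA Meg3 (log2 fold change 2.72, SE 0.50) and Pbxip1, an interactor of PBX proteins (1.84, SE 0.33), belonged to the same 10. Ehd3, an endosomal trafficking protein, had the smallest p of them over the 12 tumors: it was at 2.71 to 4.73 CPM without and 7.16 to 13.0 CPM with the antibody (log2 fold change 1.45, SE 0.23). Without Comb replicate 3 Ehd3 was called (edgeR adjusted p = 0.0338), as were Pbxip1 (0.0287) and Podn, Cdh11, Cyp1b1, Meg3 and Mustn1 (0.0409 each). Mustn1, a protein of muscle and skeletal tissue, was at 0.301 to 1.31 CPM against 1.0 to 25.3 CPM, and was highest in the tumor with the most muscle RNA.

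Lists for proliferation, ribosomes and respiration had few members past an unadjusted p of 0.05. None of the 30 DNA replication and 29 mitosis genes was higher at an unadjusted p under 0.05 and 1 of them was lower, with medians of -0.26 and -0.24 that came to -0.06 and -0.02 without Comb replicate 3. None of the 35 ribosomal protein genes differed at that p, and 2 of the 35 oxidative phosphorylation genes were lower, beside 5.49% of all genes. When Comb replicate 3 was left out, 1 DNA replication gene was higher and 3 were lower, 1 mitosis gene was higher and 2 were lower, and 1 ribosomal protein and 3 oxidative phosphorylation genes were lower, beside 12.4% of all genes higher and 8.30% lower. For apoptosis, 6 of 30 were higher with all tumors, beside 13.0% of all genes, and the median was 0.06. Without Comb replicate 3 the median was -0.02, with 5 higher and 2 lower. Separated higher were 3 of the 30, beside 2.30% of all genes: Casp8, the initiator caspase of death receptors (log2 fold change 0.65, SE 0.16), the survival factor Bcl2 (0.41, SE 0.13) and the death receptor Fas (0.90, SE 0.34). The log2 fold change of Fas was 0.48 (SE 0.19) without Comb replicate 3. TGF-β ligands, receptors and targets had 6 of 27 higher with all tumors, beside 13.0% of all genes, and a median of 0.04. Without Comb replicate 3 they had 5 higher, 2 lower and a median of 0.12. Tgfb2 was at 5.97 to 12.3 CPM without and 4.86 to 17.3 CPM with the antibody (log2 fold change -0.08, SE 0.27), and Ido2, an enzyme of tryptophan breakdown, at 7.33 to 22.4 CPM against 1.56 to 11.8 CPM. Tgfb1 had at most 16 counts in a tumor and was not tested.

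**Figure D4:**
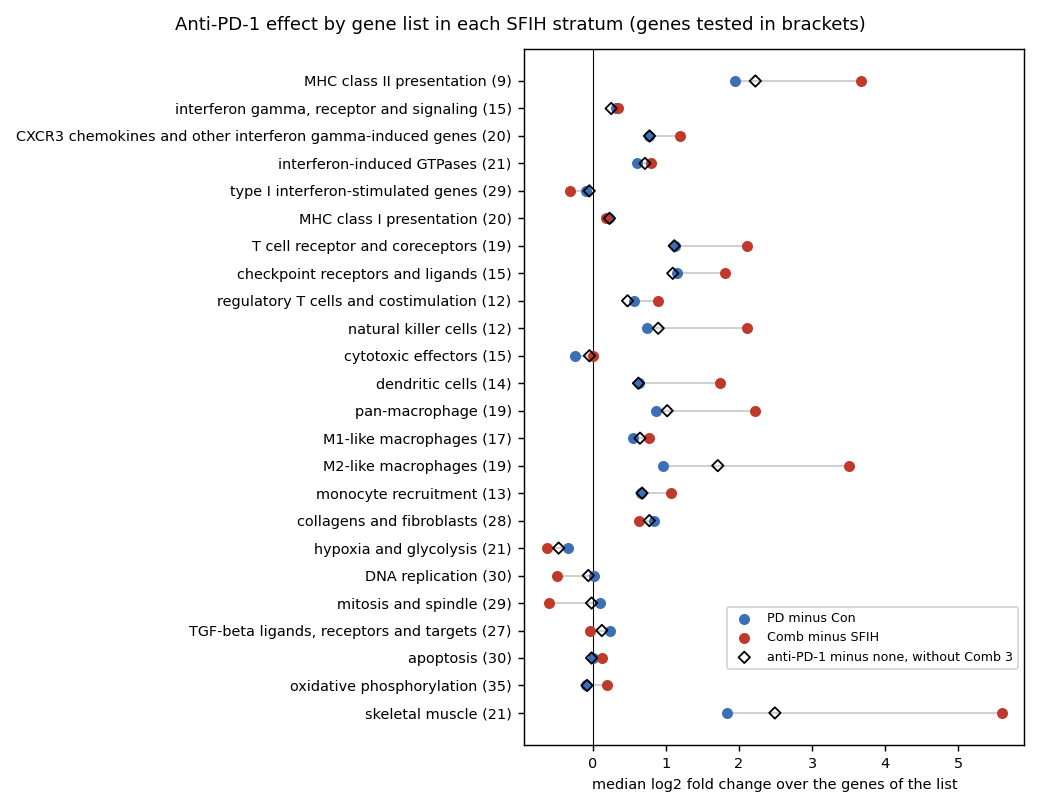
Median log2 fold change over the tested genes of each of 24 lists for PD minus Con (blue), Comb minus SFIH (red) and the 11-tumor effect without Comb replicate 3 (open diamonds). Most immune lists lie right of 0 in both strata, hypoxia and glycolysis lies left of 0 in both, and the red points of MHC class II, M2-like and muscle lists lie furthest right.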

How the data were processed

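RNA was measured by 3′ mRNA sequencing in 12 tumors (3 Con, 3 PD, 3 SFIH and 3 Comb). The authors deposited raw counts per gene symbol (QuantSeq libraries, NextSeq 500); the aligner, counting tool and genome build are not given in the sources used here. Of 23282 lines, 19137 had a count, 46 repeat a symbol and 14 carry dates in place of symbols; these stayed as separate lines. Low genes were removed with filterByExpr over the 4 groups and the rest scaled by TMM in R 4.3.3 with edgeR 4.0.16. The main fit was a quasi-likelihood model with terms for SFIH and for anti-PD-1; the strata and the interaction came from a coefficient per group. P-values are two-sided and adjusted by Benjamini and Hochberg over all genes. Exact permutations within SFIH strata used log2(CPM + 1). Fits were tried on simulated counts with no outlying tumor and no SFIH effect, which does not test them under a tumor such as Comb replicate 3. Alternatives used DESeq2 1.42.0, limma 3.58.1 voom with sample quality weights, other scalings and filters, and each tumor left out. Named genes were 18 of the study's own, the 10 smallest p per direction with at least 50 counts on average on the higher side and 1 sign throughout both strata and without Comb replicate 3, and up to 3 members with the smallest p per list, of which the text names a part. The comparison, the 33 lists (640 of 655 symbols found) and this rule were chosen with earlier results of these data known; H2-Aa, H2-Oa, Gzmg, Krt8, Epcam, Cxcl10, Cxcl11, Ido1, Nos2, the search for the hypoxia core in promoters and the genes of the last section's opening were chosen after their values were seen. Labels do not say that replicates were separate mice, so p-values measure the spread between these samples. Totals of counts limit precision at low levels, and reads without molecular identifiers make counting error a lower limit.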

Additional observations from a re-analysis of the deposited data

Results flagged for a closer look

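In each side of 6 tumors, 84 genes of the text, the gene lists and 3 library measures were screened with Dixon's ratio for a tumor far from the rest. Of 240 sides screened, 28 had such a tumor, where chance gives about 1 in 20, and 12 of the 28 were Comb replicate 3. All values here are log2(CPM + 1), for lists the mean over the tested genes.

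On the antibody side, Comb replicate 3 was lowest for the mean of DNA replication (3.89, next tumor 6.19), of mitosis and spindle (3.55, next 6.74) and of type I interferon-stimulated genes (4.98, next 6.50). The gene Usp18 was lowest there too, with 3.96 against 5.53, as were Cxcl11 (0, next 4.16) and Ido1 (0, next 1.93). It was highest for the mean of skin genes (5.31, next 1.62) and of oxidative phosphorylation (7.99, next 7.40). Among genes it was highest for Cd247 (4.82, next 3.26), Pdcd1lg2 (6.64, next 2.69), Fas (4.65, next 3.23) and Ccr2 (8.44, next 6.60). Comb replicate 2 was lowest for 3010026O09Rik, with 2.26 against 2.69.

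On the side without the antibody, Con replicate 2 was lowest for the pan-macrophage mean (5.45, next 6.02) and for the genes Csf1r (5.91, next 6.93), Adgre1 (4.23, next 5.09) and Pbxip1 (3.21, next 3.46). SFIH replicate 3 was highest for the stromal genes Cdh11 (3.36, next 2.27), Meg3 (3.35, next 2.40) and Cyp1b1 (2.73, next 1.51), and lowest for Gbp4 (4.07, next 4.38). SFIH replicate 1 was highest for the means of natural killer cells (3.37, next 2.53), tryptophan and arginine metabolism (3.35, next 3.14), skeletal muscle (2.36, next 1.46) and skin (2.53, next 1.74). SFIH replicate 2 was highest for the mean of type I interferon-stimulated genes (7.09, next 6.84) and for Usp18 (6.89, next 6.47). Con replicate 1 was highest for Lcn2, with 2.84 against 2.08. The cause of these values was not tested.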

How the results depend on the processing

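Most genes named in the text were chosen for a small p or for 1 sign throughout, so that a kept sign is no measure of stability. The genes whose sign changed in a setting were Cxcl11 (log2 fold change -0.12 with total counts alone, -0.020 with the replicate block, -0.27 to 0.31 with a tumor left out), Ido1 (0.0087 with voom weights), Ncr1 (log2 fold change 0.081 with the replicate block, 0.18 without the SFIH block, -0.43 to 0.43 with a tumor left out), Vegfa (0.018 with voom weights), Tgfb2 (0.10 with voom weights, -0.24 to 0.10 with a tumor left out) and Gzmb (-0.72 to 0.024 with a tumor left out). Counts of calls depended on the tool. DESeq2 called 967 genes higher and 212 lower with anti-PD-1, 6 in PD against Con, 1157 in Comb against SFIH and 1 for the interaction. Voom with sample quality weights, which gave Comb replicate 3 a weight of 0.0512, called 214 higher, 140 lower, 83 in PD against Con and 2019 in Comb against SFIH. It shared 131 calls with the fit without that tumor, which rests on nearly the same data. With a tumor left out, calls ranged from 0 to 755 higher, from 0 to 206 lower and from 0 to 3118 in Comb against SFIH, the highest in each case without Comb replicate 1. Genes lower at an unadjusted p under 0.05 numbered 1478 with total counts alone, 1329 with voom weights and 527 to 1365 with a tumor left out. Separated genes numbered 175 higher and 529 lower with total counts alone, and 339 to 742 higher and 289 to 717 lower with a tumor left out, a check chosen after seeing the data. List medians with voom weights were 0.88 for T cells, 0.67 for natural killer cells, 0.85 for checkpoints, 2.04 for MHC class II, 0.59 for dendritic cells, 1.21 for M2-like, 0.14 for TGF-β, 0.35 for epithelial, 2.16 for muscle and -0.66 for erythroid genes. With total counts alone they were 0.16 for interferon gamma signaling, 0.00318 for MHC class I, -0.15 for TGF-β, -0.65 for hypoxia and glycolysis, -0.16 for oxidative phosphorylation and -0.13 for apoptosis. At a mean of 50 counts or more they were 0.83 for checkpoints, 0.48 for dendritic cells, 1.37 for epithelial and 2.77 for skin genes, and with no filter 1.26 for B and plasma cells. With a tumor left out, medians ran from 0.62 to 1.47 for dendritic cells, -0.23 to 0.48 for neutrophils, -0.018 to 0.095 for apoptosis, 1.12 to 2.80 for epithelial and -0.019 to 1.66 for skin genes. The causes were not tested. Replicate numbers are shared between groups, but same-numbered tumors did not deviate together (r from -0.288 to 0.130); with the replicate block 0 genes were called, and 1497 were higher and 752 lower at an unadjusted p under 0.05.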

Other observations

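A few genes known from mast cells and eosinophils, granulocytes best known from allergy and parasite defense, were singled out after their values were seen. They are described without a test, and they do not stand for other genes of these cells. The mast cell chymase gene Cma1 was at 0.790, 0.703 and 1.96 CPM in Con, 4.70, 7.91 and 2.60 CPM in PD, 2.91, 2.15 and 4.69 CPM in SFIH and 8.16, 33.7 and 215 CPM in Comb. It was separated within both strata, with a log2 fold change of 3.58 (SE 0.85) that came to 2.41 (SE 0.44) without Comb replicate 3. The mast cell tryptase gene Tpsb2 and the carboxypeptidase gene Cpa3 were separated as well, at 2.61 to 10.8 CPM against 7.80 to 549 CPM and at 1.81 to 5.84 CPM against 5.13 to 326 CPM.

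Ccr3, the eotaxin receptor of eosinophils, had 1, 6 and 1 counts in the Con tumors, against 4, 40 and 28 in PD, and it had 3, 3 and 10 counts in the SFIH tumors, against 33, 182 and 1834 in Comb. Siglecf, a lectin of eosinophils and some macrophages, had at most 4 counts in any tumor without the antibody, against 2, 19 and 12 in PD and 10, 96 and 893 in Comb. For both genes 1 PD tumor lay inside the range of the tumors without the antibody and the other 5 antibody-treated tumors above it. The part of admixed tissue in these values was not tested.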
